A study of Mus musculus with 15 samples.

Results

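The cytochrome P450 (*Cyp*), glutathione S-transferase (*Gst*), UDP-glucuronosyltransferase (*Ugt*) and sulfotransferase (*Sult*) genes of mouse endometrial organoids were followed across 2 genotypes and 2 treatments. Genes were taken by symbol, as *Cyp*, *Gst*, *Ugt* or *Sult* with a family number, and *Cyp26a1*, *Cyp17a1* and *Cyp51* were left out by name. This gave 84 of the 16729 genes measured, of which 43 were *Cyp*, 21 *Gst*, 11 *Ugt* and 9 *Sult* genes. A mean normalised count of at least 10 over the 15 samples was reached by 56 of the 84 genes (25 *Cyp*, 20 *Gst*, 7 *Ugt* and 4 *Sult*), and only these were tested.

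The organoids are cultures of uterine epithelial cells in Matrigel. Mice of both genotypes carried floxed alleles (Smad2flox/flox; Smad3flox/flox), so the controls hold them too. *Smad2/3* cKO mice carried in addition the Ltfcre/+ allele, which places Cre recombinase under the lactoferrin gene of the uterine epithelium. A83-01 inhibits the kinase of the activin and TGFβ receptors ALK4, ALK5 and ALK7, and DMSO was its vehicle. The groups held 3 samples of control + vehicle, 4 of control + A83-01, 4 of *Smad2/3* cKO given vehicle (written *Smad2/3* cKO alone) and 4 of *Smad2/3* cKO + A83-01. The first 3 replicates of control + A83-01 carry the same sample numbers in their labels as the 3 control + vehicle replicates, and 1 number recurs between the *Smad2/3* cKO groups and 1 between genotypes.

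Drug and steroid metabolism is usually told in steps. Cytochromes P450 use electrons from NADPH to insert oxygen into lipids, steroids, vitamins and foreign compounds. Transferases then attach glutathione (GST), glucuronic acid (UGT) or sulfate (SULT) to the product, which makes it more soluble, and transporters carry the conjugate out of the cell. In the uterus the same enzymes also handle oestrogens, retinoids, vitamin D and fatty acid mediators.

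Promoters are shown first for the members the results below turn on, to set their upstream sequence beside their values. They come from RefSeq on GRCm38.p6 and run from 250 bases before to 50 bases after an annotated start. Each was searched on both strands for GCGTG (the core of the aryl hydrocarbon receptor element), TGACNNNGC (the core of the antioxidant element), and GTCTAGAC and CAGACA (SMAD elements), none of which overlaps another in the windows printed. Capitals mark the matches, and a match on the other strand reads as its reverse complement. The windows of *Gsta1* and *Gsta2*, neighbouring genes that rose with A83-01, are printed as a pair because they are alike: 232 bases were identical over an alignment of 311 columns (74.6%). *Gstp1* rose and holds GCGTG too, and *Ugt2b34* had the largest rise and holds none of these motifs. *Gstm7* fell in both comparisons with control + vehicle and holds TGACNNNGC in the window printed. Its other window (chr3:107931768-107932067), not printed, holds none of these motifs.
*Gsta1* promoter, chr9:78230419-78230718, forward strand: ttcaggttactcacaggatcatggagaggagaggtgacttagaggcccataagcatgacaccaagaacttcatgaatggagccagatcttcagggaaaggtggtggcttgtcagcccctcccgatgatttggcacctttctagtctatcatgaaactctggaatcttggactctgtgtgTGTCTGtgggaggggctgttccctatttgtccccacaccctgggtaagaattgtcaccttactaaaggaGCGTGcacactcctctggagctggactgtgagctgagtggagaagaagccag
*Gsta2* promoter, chr9:78347096-78347395, reverse strand: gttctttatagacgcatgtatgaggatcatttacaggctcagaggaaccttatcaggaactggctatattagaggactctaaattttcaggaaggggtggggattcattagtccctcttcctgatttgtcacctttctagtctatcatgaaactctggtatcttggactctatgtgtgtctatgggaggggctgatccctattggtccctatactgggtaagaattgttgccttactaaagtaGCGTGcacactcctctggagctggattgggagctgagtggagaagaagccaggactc
*Gstp1* promoter, chr19:4037863-4038162, reverse strand: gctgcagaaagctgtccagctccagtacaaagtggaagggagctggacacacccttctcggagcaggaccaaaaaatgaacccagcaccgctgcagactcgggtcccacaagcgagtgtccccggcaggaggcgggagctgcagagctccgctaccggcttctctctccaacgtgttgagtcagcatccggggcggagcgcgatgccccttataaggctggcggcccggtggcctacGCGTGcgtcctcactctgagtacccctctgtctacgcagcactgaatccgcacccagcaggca
*Gstm7* promoter, chr3:107931565-107931864, reverse strand: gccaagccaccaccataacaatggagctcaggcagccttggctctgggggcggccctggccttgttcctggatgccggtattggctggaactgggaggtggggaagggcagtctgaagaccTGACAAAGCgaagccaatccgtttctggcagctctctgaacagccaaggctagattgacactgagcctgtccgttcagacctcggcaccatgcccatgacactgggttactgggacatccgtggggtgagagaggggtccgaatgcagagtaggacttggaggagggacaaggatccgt
*Ugt2b34* promoter, chr5:86906888-86907187, reverse strand: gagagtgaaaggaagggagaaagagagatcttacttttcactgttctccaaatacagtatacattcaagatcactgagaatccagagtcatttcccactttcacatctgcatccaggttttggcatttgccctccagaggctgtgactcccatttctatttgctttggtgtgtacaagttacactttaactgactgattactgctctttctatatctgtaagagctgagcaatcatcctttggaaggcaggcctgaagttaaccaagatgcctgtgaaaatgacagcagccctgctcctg

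In *Gsta1* the GCGTG begins 2 bases before the start and in *Gsta2* 7 bases before it, and *Gsta1* also holds CAGACA on the other strand. The *Gstp1* match begins 13 bases before the start, and the TGACNNNGC of *Gstm7* 129 bases before it. RefSeq promoters were at hand for 42 of the 56 tested genes (51 windows). GCGTG was in 17 of these windows (33.3%) and in 32.4% of all 32851 promoter windows. TGACNNNGC was in 4 (7.84%, against 12.4%), CAGACA in 13 (25.5%, against 21.04%), and GTCTAGAC in none (against 0.213%). In the 9 windows of genes called changed, GCGTG was in 3 (33.3%), TGACNNNGC in 2 (22.2%), CAGACA in 1 (11.1%) and GTCTAGAC in 0. These matches describe letters in a window only.

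Per sample, normalised counts summed to between 20.2 and 24.4 M, and the spacing of low values puts the reads behind them at 18.5 to 23.3 M in 14 samples and at 43.3 M in *Smad2/3* cKO + A83-01 replicate 3. *Smad2* had 1171 ± 149 (SD) in control + vehicle and 875 ± 43.8 in *Smad2/3* cKO (limma adjusted p = 0.0719), and *Smad3* 1624 ± 107 and 1576 ± 333 (adjusted p = 0.916). These values cover whole genes, deleted exons or not, so they do not check the deletion. Replicate 1 of control + A83-01 stood apart on the second principal component of all genes (79.3, the next sample 42.5). All 6 epithelial markers were at 5583 or more in every sample, and of them *Krt8* and *Krt19* were lower in *Smad2/3* cKO (log2 fold changes −1.499 and −1.85, adjusted p = 0.00598 and 0.00621). The 4 leukocyte markers measured, mostly *Cd68*, summed to between 1261 and 2896 in control + vehicle, between 3402 and 8757 in control + A83-01, between 2116 and 5795 in *Smad2/3* cKO and between 4032 and 7969.9 in *Smad2/3* cKO + A83-01. Only *Ptprc* among them passed, higher in control + A83-01 (log2 fold change 2.82, adjusted p = 0.00415) and in *Smad2/3* cKO (3.33, adjusted p = 0.000813). For the 6 stromal markers measured the sums lay between 27.4 and 191, 4.79 and 54.7, 2.96 and 24.7, and 3.99 and 129 in the same order of groups, with *Lum* and *Dcn* at a mean of 0 in *Smad2/3* cKO, and none of the 3 tested passed. *Acta2*, of smooth muscle, fell by 3.12 on the log2 scale in *Smad2/3* cKO (adjusted p = 0.00586), and endothelial markers summed to at most 27.6. The part of these cell types in the results was not tested, and fewer cells of a type cannot be told apart from less RNA per cell.

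The first comparison asked what blocking the activin and TGFβ receptors did to these genes in organoids that keep SMAD2 and SMAD3. A gene was called changed at a Benjamini-Hochberg adjusted p below 0.01 with a fold change above 1.4 or below its inverse. In control organoids 10 of the 56 genes were called changed by A83-01, where 4.91% of all 13066 tested genes were. It raised 8, where 3.05% of all genes were called higher, and lowered 2, where 1.86% were called lower. The 8 were the glucuronosyltransferases *Ugt2b34*, *Ugt2b5* and *Ugt1a1*, the glutathione S-transferases *Gsta1*, *Gsta2* and *Gstp1*, and the P450s *Cyp24a1* and *Cyp2c23*, while *Cyp21a1* and *Gstm7* fell. The 2 groups did not overlap for 23 of the 56 genes, against 21.6% of all tested genes: 17 were higher (against 10.5%) and 6 lower (against 11.1%). An unadjusted p below 0.05 was reached by 26 of the 56, against 26% of all genes. The median log2 fold change was 0.19 over the 56 genes and −0.01 over all tested genes.

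The second comparison asked the same of the loss of *Smad2* and *Smad3*. Between *Smad2/3* cKO and control + vehicle 10 of the 56 genes were called changed, where 9.24% of all tested genes were. In *Smad2/3* cKO 6 were higher, where 5.17% of all genes were called higher, and 4 lower, where 4.07% were. The higher genes were *Ugt2b34*, *Ugt2b5*, *Ugt1a1*, *Gsta2*, *Cyp24a1* and *Cyp2c23*, and the lower ones *Gstm7*, *Cyp21a1*, *Sult4a1* and *Cyp2j6*. The groups did not overlap for 27 genes, against 30.7% of all tested genes: 15 were higher (against 15%) and 12 lower (against 15.7%). An unadjusted p below 0.05 was reached by 25, against 32.1%. The median log2 fold change was 0.04, beside 0.01 over all tested genes. The control + vehicle samples serve in both comparisons, which are therefore not independent: 8 genes passed in both, with the same sign, and 12 genes passed in at least 1. The overlap over all tested genes was not counted, so that of these 8 cannot be called particular to these enzymes.

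Each count rests on 3 control + vehicle samples and on the spread of all 15. For A83-01 in control organoids the count of 10 fell to 4 without control + vehicle replicate 2 and without control + A83-01 replicate 3 or replicate 4, to 5 without control + vehicle replicate 3, and to 6 without control + A83-01 replicate 1 or without *Smad2/3* cKO + A83-01 replicate 3. For *Smad2/3* cKO against control + vehicle it fell to 6 without control + vehicle replicate 1 and to 3 without control + vehicle replicate 2. Calls over all 13066 tested genes fell in these fits too. For A83-01 they went from 642 to between 275 (without control + vehicle replicate 2) and 586 (without *Smad2/3* cKO + A83-01 replicate 3). For *Smad2/3* cKO they went from 1207 to 632 without control + vehicle replicate 1 and to 630 without replicate 2. These falls can therefore not be called particular to these enzymes. The replicate number matches the 3 control + vehicle samples with replicates 1 to 3 of control + A83-01. Replicate 4 of control + A83-01 has no partner, so it adds nothing to the difference within pairs. With this number as a block in the fit of the 7 control samples, 4 genes passed for A83-01, where 185 of all 13066 did. They were *Ugt2b34*, and *Cyp1b1*, *Cyp2s1* and *Sult1d1*, which were not among the 10. The same samples without a block gave 3 (*Ugt2b34*, *Cyp21a1* and *Cyp2s1*), where 257 of all genes passed.

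**Figure D1:**
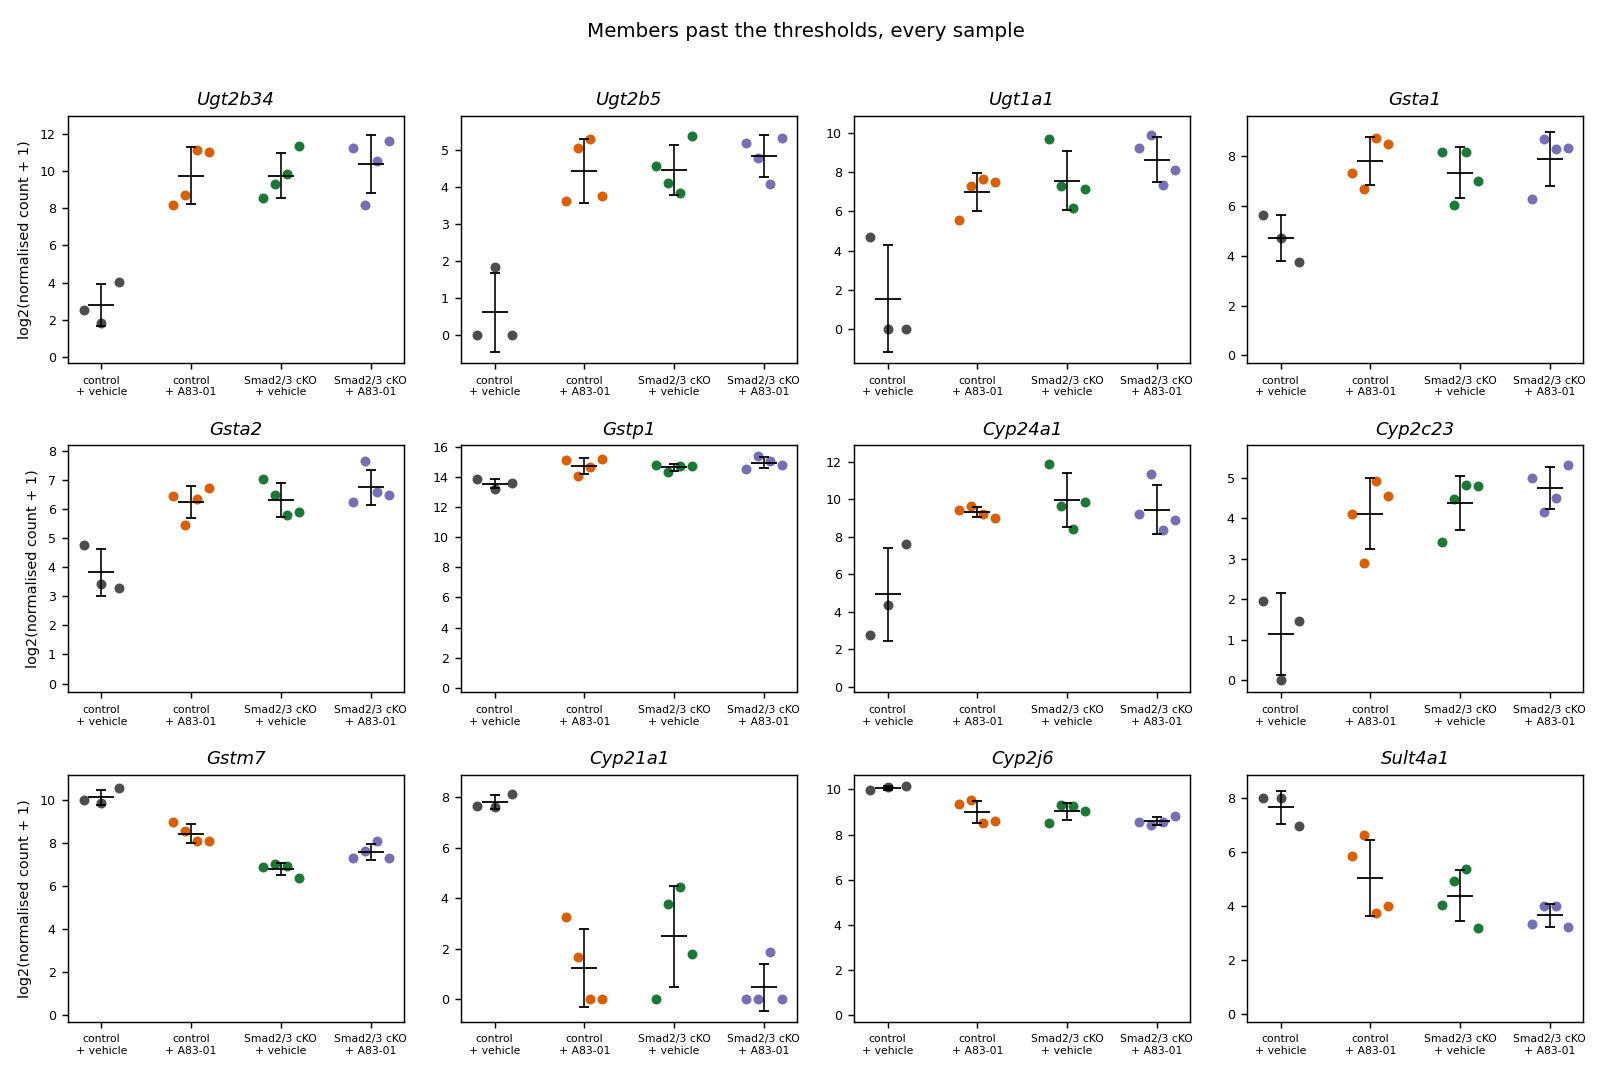
Every sample of the 12 genes called changed, as log2 of the normalised count plus 1 (vertical axes) in the 4 groups (horizontal axes), with the mean and SD as bars. For the genes that rose, the control + vehicle samples lie below all others, and for *Gstm7* the *Smad2/3* cKO samples lie lowest.

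UDP-glucuronosyltransferases held the 2 largest rises of both comparisons. In each, 3 of the 7 tested were called, where 4.91% (A83-01) and 9.24% (*Smad2/3* cKO) of all genes were. *Ugt2b34* (chr5:86889767-86906937, reverse strand, all gene positions on GRCm38), which adds glucuronic acid to steroids and other lipophilic compounds, had normalised counts of 4.86, 2.62 and 15.4 in the 3 control + vehicle samples. They were 284, 411, 2214 and 2098 in control + A83-01, 367.3, 633, 897 and 2606 in *Smad2/3* cKO and 2393, 282, 1470.0 and 3151 in *Smad2/3* cKO + A83-01. Every sample with inhibitor or deletion was above every control + vehicle sample, and within each of these 3 groups the highest sample was several times the lowest. The log2 fold change was 6.93 ± 0.92 (SE) for A83-01 in control organoids, with a limma adjusted p of 0.000208. The same value, 6.93 ± 0.92 (SE), was found for *Smad2/3* cKO against control + vehicle, with an adjusted p of 0.000136. Both calls held without any 1 of the 15 samples (adjusted p at most 0.00243 and 0.00148).

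*Ugt2b5* (chr5:87124960-87140318, reverse strand), another steroid glucuronosyltransferase of the same cluster, was near 0 in control + vehicle (0, 2.596 and 0). It had 11.3, 32.2, 37.9 and 12.5 in control + A83-01, 22.4, 16.0, 13.1 and 40.001 in *Smad2/3* cKO and 34.8, 26.3, 15.7 and 38.6 in *Smad2/3* cKO + A83-01, all above the control + vehicle samples. Its log2 fold changes were 3.81 (adjusted p = 0.00140) and 3.84 (adjusted p = 0.00084). Since the base is a handful of reads, the fold depends on the pseudocount, and over the alternatives the first ran from 1.54 to 6.09 and the second from 1.54 to 6.13. Both calls held without any 1 sample, but that for A83-01 was lost with a pseudocount of 10, in the 7 control samples alone and with their replicate block (adjusted p = 0.0228), and that for *Smad2/3* cKO in the samples of its own comparison alone. Of the 31-base words in its transcripts 55.8% also occur in other *Ugt* genes, foremost *Ugt2b38*, so reads may be shared between them.

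The *Ugt1* genes lie in 1 locus in which separate first exons are joined to the same last exons, and 1311 exonic bases of each are common to all 5 tested here. *Ugt1a1* (chr1:88211959-88218997, forward strand), the enzyme that conjugates bilirubin and oestradiol, had 25.0, 0 and 0 in control + vehicle. In control + A83-01 it had 46.4, 154, 199 and 176, in *Smad2/3* cKO 826, 158, 69.8 and 137 and in *Smad2/3* cKO + A83-01 590.0, 938, 162 and 269, so that the lowest of these 12 samples was above the highest control + vehicle sample. The log2 fold changes were 5.42 (95% interval 3.15 to 7.70), adjusted p = 0.00444, and 5.999 (95% interval 3.72 to 8.27), adjusted p = 0.00139. Without control + vehicle replicate 2 or 3, or control + A83-01 replicate 3 or 4, the call for A83-01 was lost (adjusted p up to 0.0315), and without control + vehicle replicate 2 so was that for *Smad2/3* cKO (adjusted p = 0.0107).

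The other *Ugt1* genes passed in neither comparison. *Ugt1a7c*, with the highest mean normalised count of the *Ugt* genes, had 2266 ± 357 in control + vehicle (SD, n = 3) and 3544 ± 835 in control + A83-01 (n = 4), with an adjusted p of 0.105. Its difference between *Smad2/3* cKO and control + vehicle was 0.03 (95% interval −0.47 to 0.54) on the log2 scale. *Ugt1a6a*, which conjugates small phenols, did not overlap between control + vehicle and the rest, with 347, 442 and 412 in control + vehicle and at least 617 elsewhere. Its log2 fold changes of 1.04 and 1.14 had adjusted p of 0.0299 and 0.0127. *Ugt1a2*, with a mean of 10.3 just above the minimum, was at most 3.22 in the 7 control samples and had 15.1, 12.6, 0 and 36.8 in *Smad2/3* cKO (adjusted p = 0.145). Between *Ugt1* genes 53.0% to 84.2% of the 31-base words of a gene are shared, so the split of reads among them is uncertain.

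Of the glutathione S-transferases, 2 of 4 alpha and 1 of 3 pi genes rose with A83-01 in control organoids, against 3.05% of all genes. In *Smad2/3* cKO 1 alpha gene was higher, against 5.17%. *Gsta1* (chr9:78230656-78242684, forward strand), a detoxifying alpha enzyme, had 49.2, 25.3 and 12.6 in control + vehicle, 161, 103, 428 and 356 in control + A83-01, 285, 64.3, 285 and 128 in *Smad2/3* cKO and 76.1, 407, 314 and 317 in *Smad2/3* cKO + A83-01. The control + vehicle samples were the lowest 3 of the 15. A83-01 raised it by 3.102 ± 0.69 (SE) on the log2 scale with an adjusted p of 0.00900, and the 2.63 for *Smad2/3* cKO one of 0.0150, which did not pass. The call for A83-01 was lost in 11 of the 15 fits without 1 sample (adjusted p up to 0.0464).

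*Gsta2* (chr9:78331018-78355788, reverse strand), its near copy, had 25.98, 9.76 and 8.73 in control + vehicle, 86.3, 43.2, 79.4 and 104 in control + A83-01, 130.01, 88.9, 54.3 and 59.0 in *Smad2/3* cKO and 75.4, 199, 95.2 and 88.0 in *Smad2/3* cKO + A83-01. Again the 3 control + vehicle samples were the lowest. The log2 fold changes were 2.42 ± 0.47 (SE) for A83-01, adjusted p = 0.00422, and 2.48 ± 0.47 (SE) for *Smad2/3* cKO, adjusted p = 0.00215. Both calls were lost without control + vehicle replicate 2 or 3, and that for A83-01 also without control + A83-01 replicate 1, 3 or 4 (adjusted p up to 0.0270). The 2 genes share 56.6% of the 31-base words of *Gsta1* and 44.7% of those of *Gsta2*, so their levels are not fully separate measurements. The alpha genes *Gsta3* and *Gsta4* did not pass, with log2 fold changes of −0.13 (95% interval −1.09 to 0.83) and 0.36 (95% interval −0.38 to 1.10) for A83-01.

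*Gstp1* (chr19:4035407-4037985, reverse strand), the main pi enzyme, had 15064, 9584 and 12607 in control + vehicle and 35858, 17207, 25806 and 37780.5 in control + A83-01. It had 29114, 20513, 27987 and 27148 in *Smad2/3* cKO and 24317, 42788, 34910.0 and 29183 in *Smad2/3* cKO + A83-01. All 12 samples with inhibitor or deletion were above the 3 control + vehicle samples, and the log2 fold change for A83-01 was 1.19 ± 0.27 (SE) (adjusted p = 0.00989). That call sits at the threshold: it was lost in 12 of the 15 fits without 1 sample (adjusted p up to 0.0629), and for *Smad2/3* cKO the log2 fold change of 1.09 gave an adjusted p of 0.0108. The neighbouring genes *Gstp2* and *Gstp3* had 1.21 and 1.90 for A83-01 (adjusted p = 0.0138 and 0.0305), with groups that did not overlap, and *Gstp1* shares 38.5% of its 31-base words with *Gstp2*.

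*Gsto1*, the omega transferase that reduces rather than conjugates many substrates, had the highest mean normalised count of the 84 genes. Its level was 72358 ± 14687 in control + vehicle (SD, n = 3), 49207 ± 9931 in control + A83-01, 53478 ± 23781 in *Smad2/3* cKO and 41826 ± 14643 in *Smad2/3* cKO + A83-01 (n = 4 each), and it passed in no comparison. Per kilobase of exon, *Gsto1* led the *Gst* genes in control + vehicle with a mean of 35768 normalised counts, ahead of *Gstp1* with 8022. In *Smad2/3* cKO + A83-01 their means per kilobase were 20675 and 21188. Within a sample the *Gstp1* level per kilobase was 0.206 to 0.244 times that of *Gsto1* in control + vehicle. For control + A83-01 this ratio lay between 0.644 and 0.898, for *Smad2/3* cKO between 0.431 and 1.22, and for *Smad2/3* cKO + A83-01 between 0.89998 and 1.20. The control + vehicle samples had the lowest ratios, and the ratios of *Smad2/3* cKO and *Smad2/3* cKO + A83-01 overlapped.

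Of the 6 mu genes tested 1 was called, and it fell in both comparisons, where 1.86% and 4.07% of all genes were called lower. *Gstm7* (chr3:107926334-107931817, reverse strand), a mu transferase, had 1035, 944 and 1504 in control + vehicle, 515, 381, 279 and 276 in control + A83-01, 117, 130.05, 121 and 83.1 in *Smad2/3* cKO and 156, 201, 272 and 157 in *Smad2/3* cKO + A83-01. The control + vehicle samples were the highest, control + A83-01 came next, and *Smad2/3* cKO and *Smad2/3* cKO + A83-01 were lower still, with *Smad2/3* cKO + A83-01 above *Smad2/3* cKO in every sample. The log2 fold change was −1.69 ± 0.28 (SE) for A83-01 in control organoids, adjusted p = 0.00120. It was −3.34 ± 0.28 (SE) for *Smad2/3* cKO, adjusted p = 2.02e-06, and both calls held without any 1 sample (adjusted p at most 0.00923 and 2.51e-05). Under the replicate block in the control samples the adjusted p for A83-01 was 0.0343. Only 1.77% of its 31-base words occur in other genes of these families.

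The other 5 mu genes did not pass. *Gstm1*, a major detoxifying mu enzyme, had 1914, 1555 and 1718 in control + vehicle, 3886, 1602, 1745 and 1744 in control + A83-01 and 1339, 1129, 1466 and 1009.7 in *Smad2/3* cKO. Its 95% interval for *Smad2/3* cKO against control + vehicle ran from −1.15 to 0.16 on the log2 scale. All 3 tested theta genes were lower in each *Smad2/3* cKO sample than in every control + vehicle sample, where 15.7% of all tested genes were. Their log2 fold changes were −0.73 for *Gstt1*, −0.48 for *Gstt2* and −0.87 for *Gstt3*, but none passed (adjusted p = 0.194, 0.273 and 0.0162).

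**Figure D2:**
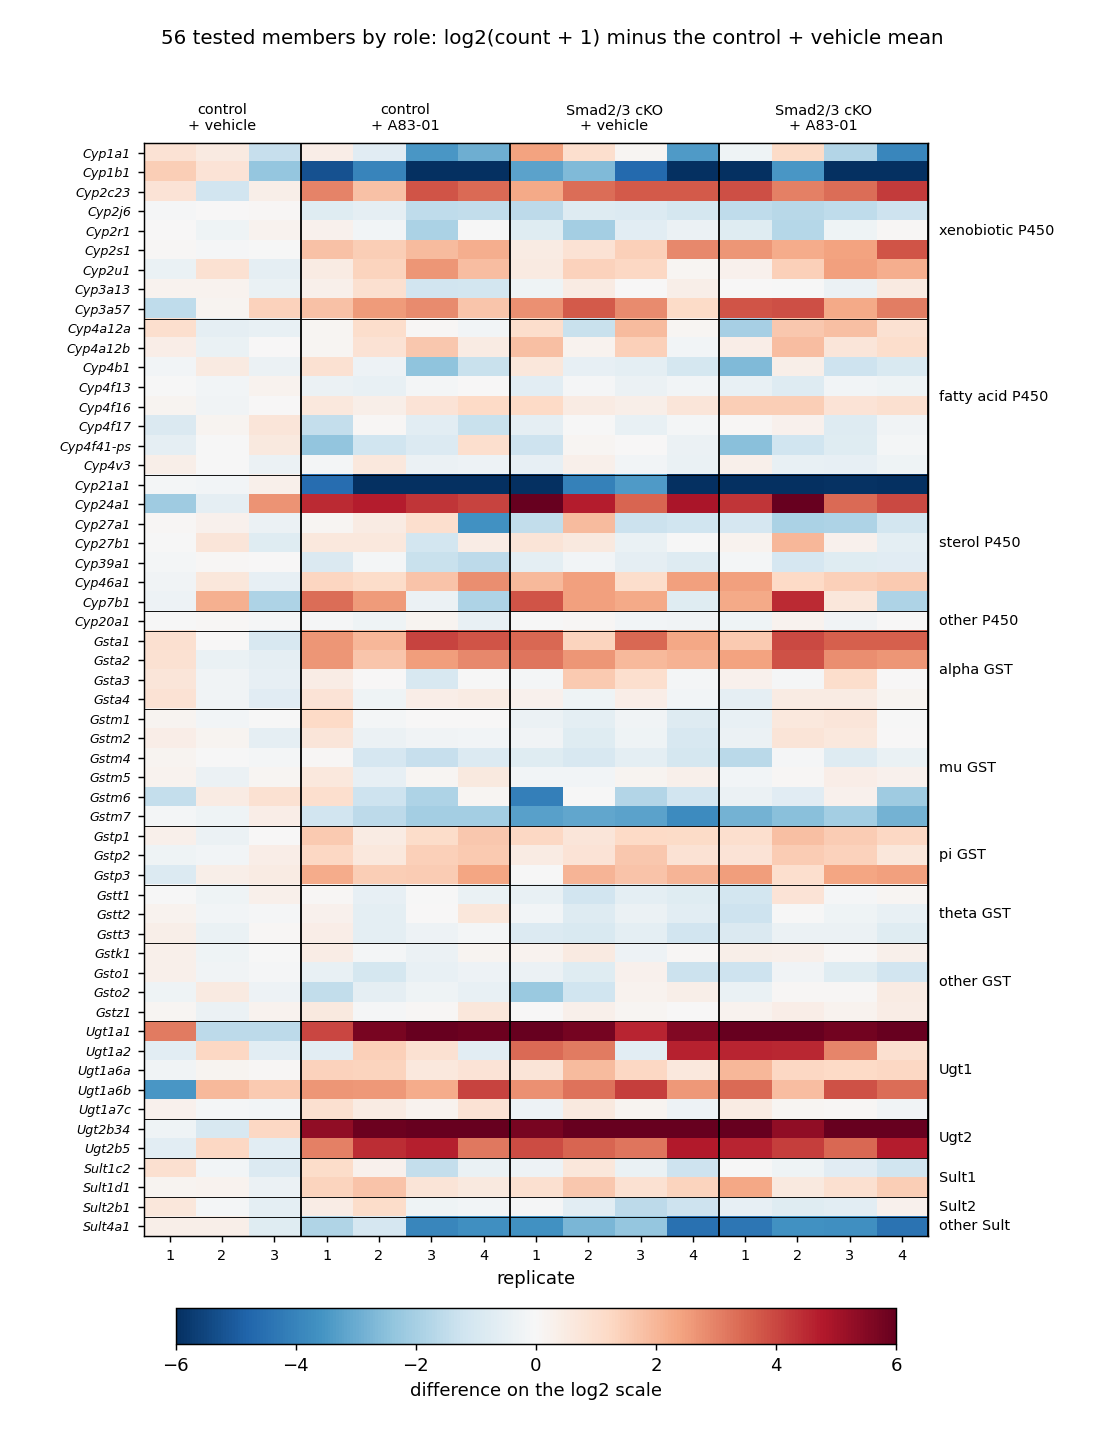
Each of the 56 tested genes (listed by role) in each of the 15 samples (left to right, by group and replicate), as log2 of the normalised count plus 1 minus the control + vehicle mean, with colours capped at 6 in both directions. The *Ugt2* genes, *Ugt1a1* and *Cyp24a1* are red in all 12 samples with inhibitor or deletion and *Cyp21a1* and *Gstm7* are blue, while most other genes are pale or vary between replicates.

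Sterol P450s held the largest fall and a large rise. *Cyp21a1* (chr17:34801348-34804561, reverse strand), the steroid hydroxylase of the adrenal cortex, had 202, 196 and 278 in control + vehicle. It had 8.51, 2.18, 0 and 0 in control + A83-01, 0, 12.4, 20.5 and 2.42 in *Smad2/3* cKO and 0, 0, 2.67 and 0 in *Smad2/3* cKO + A83-01, so every such sample was below the lowest control + vehicle sample. The log2 fold changes were −6.57 (95% interval −8.81 to −4.34), adjusted p = 0.00101, for A83-01 and −5.32 (95% interval −7.55 to −3.08), adjusted p = 0.00269, for *Smad2/3* cKO. Over the alternatives they ran from −8.38 to −4.25 and from −6.29 to −3.77, and the call for *Smad2/3* cKO was lost without any 1 of the 3 control + vehicle samples (adjusted p up to 0.0134). The kit did not keep strand: the gene overlaps 102 exonic bases of *Tnxa* on the other strand and shares 33.2% of its 31-base words with *Cyp21a2-ps*, so reads may come from either.

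*Cyp24a1* (chr2:170482708-170497145, reverse strand), which inactivates vitamin D, had 5.78, 19.5 and 196 in control + vehicle, 671, 779.6, 596 and 503 in control + A83-01, 3805, 801, 336 and 912 in *Smad2/3* cKO and 595, 2545, 321 and 471 in *Smad2/3* cKO + A83-01. The 3 control + vehicle samples differed widely and were still the lowest. A83-01 raised it by 4.39 ± 0.97 (SE) on the log2 scale (adjusted p = 0.00910), and in *Smad2/3* cKO it was higher by 5.03 ± 0.97 (SE) (adjusted p = 0.00241). Leaving out 1 sample ended the first call in 11 of 15 fits (adjusted p up to 0.0525), and without control + vehicle replicate 1 or 2 the second (up to 0.0168). *Cyp27b1*, which makes active vitamin D, had 16.4, 27.9 and 9.78 in control + vehicle and 26.6, 26.3, 7.32 and 22.7 in control + A83-01, a log2 fold change of 0.16 (95% interval −1.19 to 1.51).

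Among the other sterol P450s, *Cyp46a1*, the cholesterol hydroxylase known from neurons, had 12.6, 24.4 and 9.95 in control + vehicle and 59.5, 85.9, 31.4 and 84.9 in *Smad2/3* cKO, groups that did not overlap, with an adjusted p of 0.0127. *Cyp27a1*, a mitochondrial sterol hydroxylase with a mean of 10.8, had 12.3, 13.97 and 8.87 and 3.51, 45.7, 4.09 and 4.505 in these groups (adjusted p = 0.776).

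P450s were grouped by family number alone. Of the 9 drug-family P450s tested (*Cyp1*, *Cyp2* and *Cyp3*, with *Cyp2r1* among them), 1 was called for A83-01 and 2 for *Smad2/3* cKO. Of all genes 4.91% and 9.24% were. The 8 fatty acid P450s (*Cyp4*) include the pseudogene *Cyp4f41-ps*, and none of them was called by limma. *Cyp2c23* (chr19:44005022-44029208, reverse strand), an arachidonic acid epoxygenase, rose from a few reads: 2.85, 0 and 1.76 in control + vehicle, against 16.1, 6.42, 29.3 and 22.5 in control + A83-01, 9.69, 21.1, 27.4 and 26.9 in *Smad2/3* cKO and 30.8, 16.7, 21.7 and 38.7 in *Smad2/3* cKO + A83-01. The 12 samples with inhibitor or deletion were above all 3 others. Its log2 fold changes were 2.98 ± 0.63 (SE), adjusted p = 0.00672, and 3.24 ± 0.63 (SE), adjusted p = 0.00245, and neither passed with a pseudocount of 10. Without 1 sample the call for A83-01 was lost in 7 of 15 fits (adjusted p up to 0.0431), and that for *Smad2/3* cKO without control + vehicle replicate 2 (0.0165).

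*Cyp2j6* (chr4:96516138-96553661, reverse strand), of the other main epoxygenase family, went down. It had 1015, 1093 and 1129 in control + vehicle, 643, 735, 369.1 and 391 in control + A83-01, 361, 631, 608 and 522 in *Smad2/3* cKO and 379.7, 342, 378 and 455 in *Smad2/3* cKO + A83-01, and the control + vehicle samples were the highest. For *Smad2/3* cKO it fell by 1.05 on the log2 scale (standard error 0.25, adjusted p = 0.00839), a call lost in 10 of 15 fits without 1 sample (adjusted p up to 0.0332). For A83-01 the log2 fold change of −1.08 gave an adjusted p of 0.0116. Per kilobase it led the *Cyp* genes in control + vehicle with 299.

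*Cyp2s1*, a P450 of epithelia, had the highest mean normalised count of the *Cyp* genes. It had 409, 368.5 and 375 in control + vehicle, 1297, 1073, 1436 and 1731 in control + A83-01, 541, 698, 1050.2 and 2849 in *Smad2/3* cKO and 2419, 1790.2, 2054 and 5332 in *Smad2/3* cKO + A83-01. The control + vehicle samples were the lowest and closely spaced, while those of the *Smad2/3* cKO groups were spread widely. The adjusted p was 0.0172 for A83-01, with a log2 fold change of 1.83, and 0.00607 with the replicate block in the control samples. *Cyp4f16*, of the fatty acid hydroxylases, had 524 ± 74.4 in control + vehicle (SD, n = 3) and 1217 ± 285 in *Smad2/3* cKO + A83-01 (n = 4). *Cyp1b1*, which hydroxylates oestradiol, had 785, 504 and 56.2 in control + vehicle and at most 44.8 in the other 12 samples. Its log2 fold change of −6.02 (95% interval −9.07 to −2.96) gave an adjusted p of 0.0136.

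Of the sulfotransferases, *Sult4a1* (chr15:84076097-84105754, reverse strand), known from brain and without a settled substrate, had 258, 256 and 123 in control + vehicle, 55.9, 98.0, 12.2 and 14.8 in control + A83-01, 15.5, 29.4, 40.1 and 8.13 in *Smad2/3* cKO and 9.12, 15.1, 14.9 and 8.38 in *Smad2/3* cKO + A83-01. The control + vehicle samples were the highest 3. For *Smad2/3* cKO the log2 fold change was −3.28 ± 0.69 (SE), adjusted p = 0.00404, lost without control + vehicle replicate 1 or 2 or *Smad2/3* cKO replicate 1 or 4 (adjusted p up to 0.0232). For A83-01 it was −2.62, adjusted p = 0.0228. *Sult1d1*, which sulfates small phenols, had 2192, 2288 and 1542 in control + vehicle and 3855, 6150.2, 3743 and 4989.6 in *Smad2/3* cKO, groups that did not overlap (log2 fold change 1.21, adjusted p = 0.0271). *Sult1c2* had a log2 fold change of −0.11 (95% interval −1.35 to 1.12) for A83-01.

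**Figure D3:**
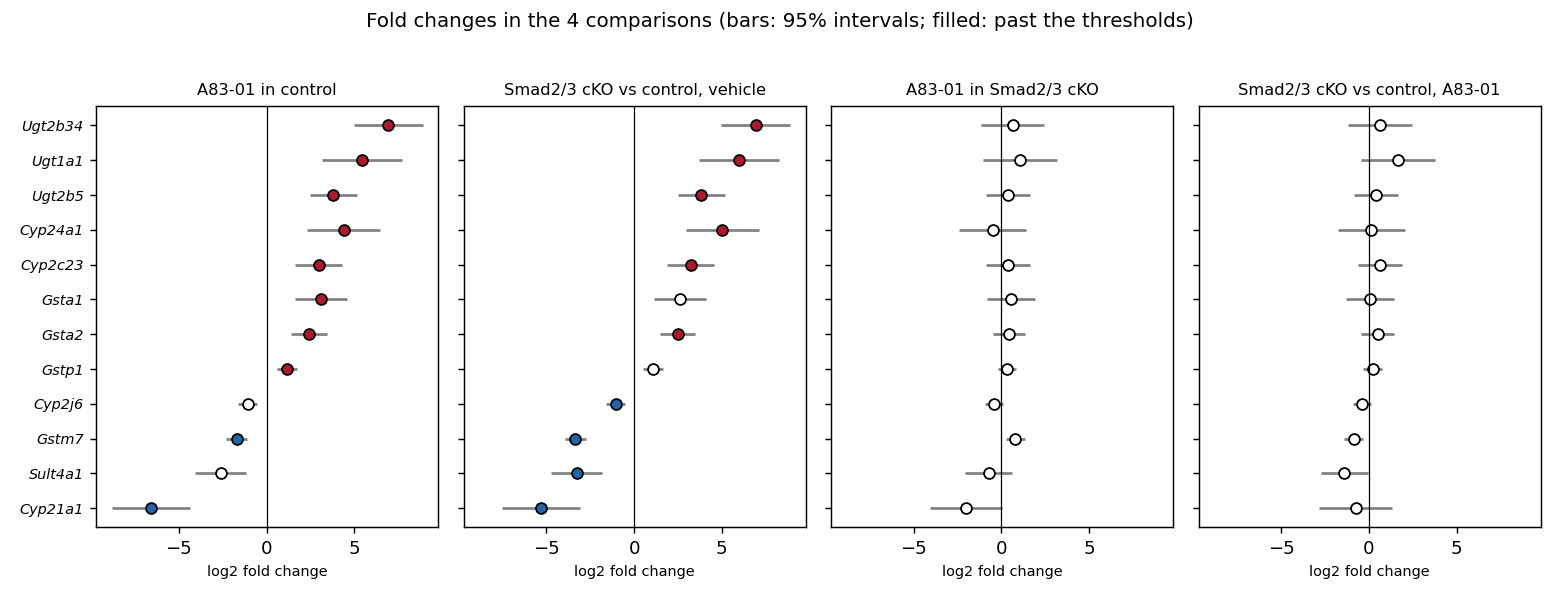
Log2 fold change (horizontal axes) of the 12 genes called changed (top to bottom) in 4 comparisons, with 95% intervals as bars and filled points for calls. In the 2 left comparisons, which share their control + vehicle samples, most intervals exclude 0, and in the 2 right ones all points are open.

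The third comparison asked whether A83-01 had an effect once *Smad2* and *Smad3* were deleted. None of the 56 genes passed in *Smad2/3* cKO organoids, where 0% of all 13066 genes did by limma, and 5 genes had an unadjusted p below 0.05, where 3.11% of all genes had. Those 5 were *Gstm7*, *Gstm1*, *Gstm2*, *Cyp2s1* and *Cyp4f16*, named here after their values were seen. *Gstm7* was the 1 gene whose groups did not overlap, higher with A83-01 (against 1.86% of all genes in that direction and 2.91% in either). Its log2 difference was 0.78 (95% interval 0.23 to 1.33), and that of *Ugt2b34* was 0.63 (95% interval −1.18 to 2.44), an interval that spans changes of more than 1 unit in both directions. No alternative gave a call, quantile normalisation, another pseudocount and leaving out each sample included.

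Between genotypes under A83-01, none of the 56 genes passed by limma, where 0.0383% of all genes did, and 6 had an unadjusted p below 0.05, where 11.1% had. Of all genes 0.0306% were called higher and 0.00765% lower. The groups did not overlap for *Cyp2s1*, higher in *Smad2/3* cKO + A83-01 (against 3.35%), and *Gstm7*, lower (against 2.77%), 2 genes against 6.12% of all. *Gstm7* came nearest to the threshold, with a log2 difference of −0.87 (95% interval −1.42 to −0.32) and an adjusted p of 0.202. *Ugt1a2* (2.97, adjusted p = 0.330) and *Sult4a1* (−1.4002, adjusted p = 0.432) did not pass.

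Whether the effect of A83-01 differed between genotypes was tested as an interaction. It passed for 1 of the 56 genes, *Gstm7*, where 0.551% of all genes passed (0.0995% with a positive and 0.452% with a negative interaction, and 14.3% had an unadjusted p below 0.05, beside 14 of the 56): the effect was −1.69 in control and 0.78 in *Smad2/3* cKO organoids, a difference of 2.47 ± 0.38 (SE) on the log2 scale with an adjusted p of 0.00303. Without control + vehicle replicate 3 it was lost (adjusted p = 0.0106). *Ugt2b34* had the largest difference, −6.30 (95% interval −8.97 to −3.63), which did not pass (adjusted p = 0.0184). For *Cyp24a1* the difference was −4.89 (adjusted p = 0.0881) and for *Cyp21a1* 4.56 (adjusted p = 0.137).

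Some of these genes varied with the number in the sample label. Numbers below 390 and numbers of 390 or above both occur in each group but *Smad2/3* cKO + A83-01, which has lower numbers only, and the labels do not say what the numbers stand for. In all 3 groups with both the lower-numbered samples were above the higher-numbered ones for 7 of the 56 genes (*Cyp1a1*, *Cyp1b1*, *Cyp27b1*, *Cyp4b1*, *Cyp7b1*, *Sult1c2* and *Sult2b1*), against 3.54% of all tested genes. They were below them for *Ugt2b34* and *Gstp2* (2 genes, against 2.85%). This was looked at after the values were seen and was not tested.

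*Cyp1a1*, the classical target of the aryl hydrocarbon receptor, had 689.7, 557 and 146 in control + vehicle, 501, 238, 33.7 and 49.9 in control + A83-01, 2024, 770.1, 414 and 35.002 in *Smad2/3* cKO and 320.2, 839, 114 and 24.8 in *Smad2/3* cKO + A83-01. Its samples spread over more than 1 order of magnitude within each of the last 3 groups, and its log2 fold change for A83-01 was −1.67 (95% interval −4.52 to 1.18). *Ugt2b34* averaged 347 in the 2 lower-numbered and 2156 in the 2 higher-numbered control + A83-01 samples. With the number series as a covariate, chosen after the data were seen, 9 genes passed for A83-01 (7 of the 10 above, without *Cyp24a1*, *Gsta1* and *Gstp1*, and with *Cyp1b1* and *Gstp2*) and 10 for *Smad2/3* cKO (9 of the 10 above, without *Cyp2j6* and with *Ugt1a6a*). Of all 13066 tested genes 669 and 1286 passed in that fit. Within the lower-numbered samples alone, 2 in each of these 3 groups, *Ugt2b34* was the 1 gene to pass for A83-01, and 4 passed for *Smad2/3* cKO. There 106 and 508 of all tested genes passed. The higher-numbered samples include 1 control + vehicle sample and none of *Smad2/3* cKO + A83-01, too few for values of their own.

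**Figure D4:**
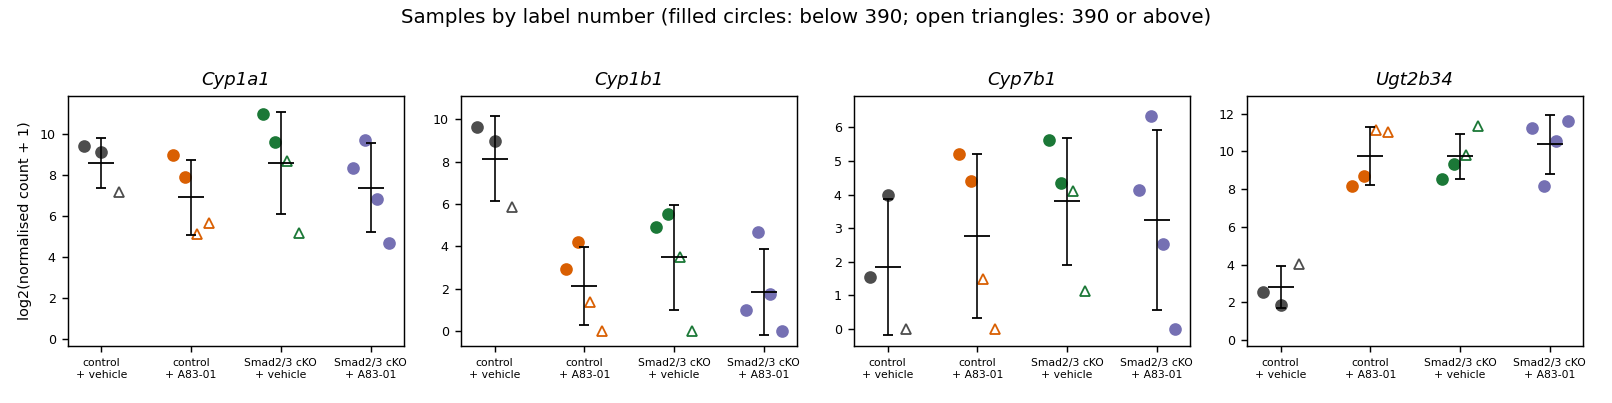
*Cyp1a1*, *Cyp1b1*, *Cyp7b1* and *Ugt2b34* in every sample, as log2 of the normalised count plus 1 (vertical axes) by group (horizontal axes), with the mean and SD as bars, filled circles for label numbers below 390 and open triangles for the rest. In the first 3 groups the triangles lie below the circles for the *Cyp* genes and above them for *Ugt2b34*.

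Genes that feed or surround these enzymes were followed as 5 written lists. Of 17 electron donor and cofactor genes, 3 rose with A83-01 in control organoids (against 3.05% of all genes) and the same 3 in *Smad2/3* cKO (against 5.17%). *Ugdh*, which makes the UDP-glucuronic acid that UGTs use, had 3541, 4550.0 and 3859 in control + vehicle, 7036, 5689.5, 8886 and 10174 in control + A83-01 and 8558, 8789, 10019.8 and 8783 in *Smad2/3* cKO. Every sample of the latter groups was above the control + vehicle samples, and the log2 fold changes were 0.97 (adjusted p = 0.00563) and 1.19 (adjusted p = 0.000879). *Papss2*, which makes the sulfate donor of the sulfotransferases, rose by 1.73 (adjusted p = 0.00097) and by 1.95 (adjusted p = 0.000215), and *Me1*, a source of NADPH, by 0.58 and 0.66 (adjusted p = 0.00573 and 0.00149). The median of the list was 0.16 and 0.30, beside −0.01 and 0.01 over all tested genes.

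Of the sensors and regulators, 14 of the 20 listed were tested. In each comparison 1 passed, where 4.91% (A83-01) and 9.24% (*Smad2/3* cKO) of all genes did. *Vdr*, the vitamin D receptor, had 125, 104 and 246 in control + vehicle, 319, 377, 382 and 464 in control + A83-01 and 797, 898, 545 and 689.7 in *Smad2/3* cKO. It rose by 1.37 (adjusted p = 0.00657) and 2.28 (adjusted p = 8.48e-05) on the log2 scale. *Ahr*, the aryl hydrocarbon receptor, had a log2 fold change of −1.34 for A83-01 (adjusted p = 0.0373), and *Nfe2l2*, the regulator of the antioxidant element, −0.15 (adjusted p = 0.513). The list's median was −0.12 for A83-01 and −0.02 for *Smad2/3* cKO.

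Among 17 glutathione and NRF2 target genes, 2 rose with A83-01 (against 4.91% of all genes called), and 3 rose and 1 fell in *Smad2/3* cKO (against 9.24%). *Gpx3*, the secreted glutathione peroxidase, had 9908, 11445 and 8141 in control + vehicle, 155980.0, 129110.0, 88109 and 124077 in control + A83-01, 134261, 148825, 124647 and 221303 in *Smad2/3* cKO and 211691, 210443, 153065 and 230460.0 in *Smad2/3* cKO + A83-01. All 12 other samples were above the control + vehicle samples, with log2 fold changes of 3.64 (adjusted p = 5.25e-07) and 3.98 (adjusted p = 1.76e-07). *Srxn1*, which repairs oxidised peroxiredoxins, rose by 0.79 and 0.75 (adjusted p = 0.00287 and 0.00241). *Gclm*, of glutathione synthesis, rose by 0.76 in *Smad2/3* cKO (adjusted p = 0.00288), where *Txnrd1*, a thioredoxin reductase, had −0.61 (adjusted p = 0.00675). The medians of the list were −0.03 and 0.07.

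Of 20 other drug-metabolising enzymes tested, 1 fell with A83-01 (against 4.91% of all genes called), and 2 fell and 1 rose in *Smad2/3* cKO (against 9.24%). *Ephx2*, which hydrolyses the epoxides that CYP2C and CYP2J enzymes form, had 313, 265 and 262 in control + vehicle, 52.0, 34.8, 48.5 and 56.8 in control + A83-01 and 12.6, 34.8, 63.2 and 18.4 in *Smad2/3* cKO. Every sample of the latter groups was below the control + vehicle samples, and the log2 fold changes were −2.54 (adjusted p = 0.00676) and −3.33 (adjusted p = 0.000687). In *Smad2/3* cKO the microsomal transferase *Mgst3* had −1.69 (adjusted p = 0.00167) and the prostaglandin D synthase *Hpgds* 1.34 (adjusted p = 0.00727). The list's medians were 0.02 and 0.04.

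Of the 5 lists, that of transporters had the largest share called. It was written as efflux transporters but also holds *Slco2a1*, *Slco3a1* and *Slco4a1*, of an uptake family, which were not called. For A83-01 4 of 11 tested genes were higher, against 4.91% of all genes called. In *Smad2/3* cKO 4 were higher and 1 lower, against 9.24%. *Abcb1b*, a mouse P-glycoprotein that expels drugs, had 4254, 3044 and 3173 in control + vehicle, 18947, 29515, 52869 and 51344 in control + A83-01 and 42872, 72794, 69850.4 and 109823 in *Smad2/3* cKO. Its log2 fold changes were 3.35 (adjusted p = 0.00012) and 4.34 (adjusted p = 7.01e-06). *Slc47a1*, which exports organic cations, had 0, 0.890 and 8.95 in control + vehicle and at least 58.2 in every other sample. It rose by 5.10 and 5.27 (adjusted p = 8.61e-05 and 3.95e-05). *Abcc3*, which exports glucuronides, rose by 0.85 and 1.28 (adjusted p = 0.00925 and 0.000348), and *Abcb1a* by 1.51 and 1.86 (adjusted p = 0.00180 and 0.000218). The medians of the list were 0.15 and 0.18. In *Smad2/3* cKO organoids no gene of the 5 lists passed for A83-01 by limma.

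**Figure D5:**
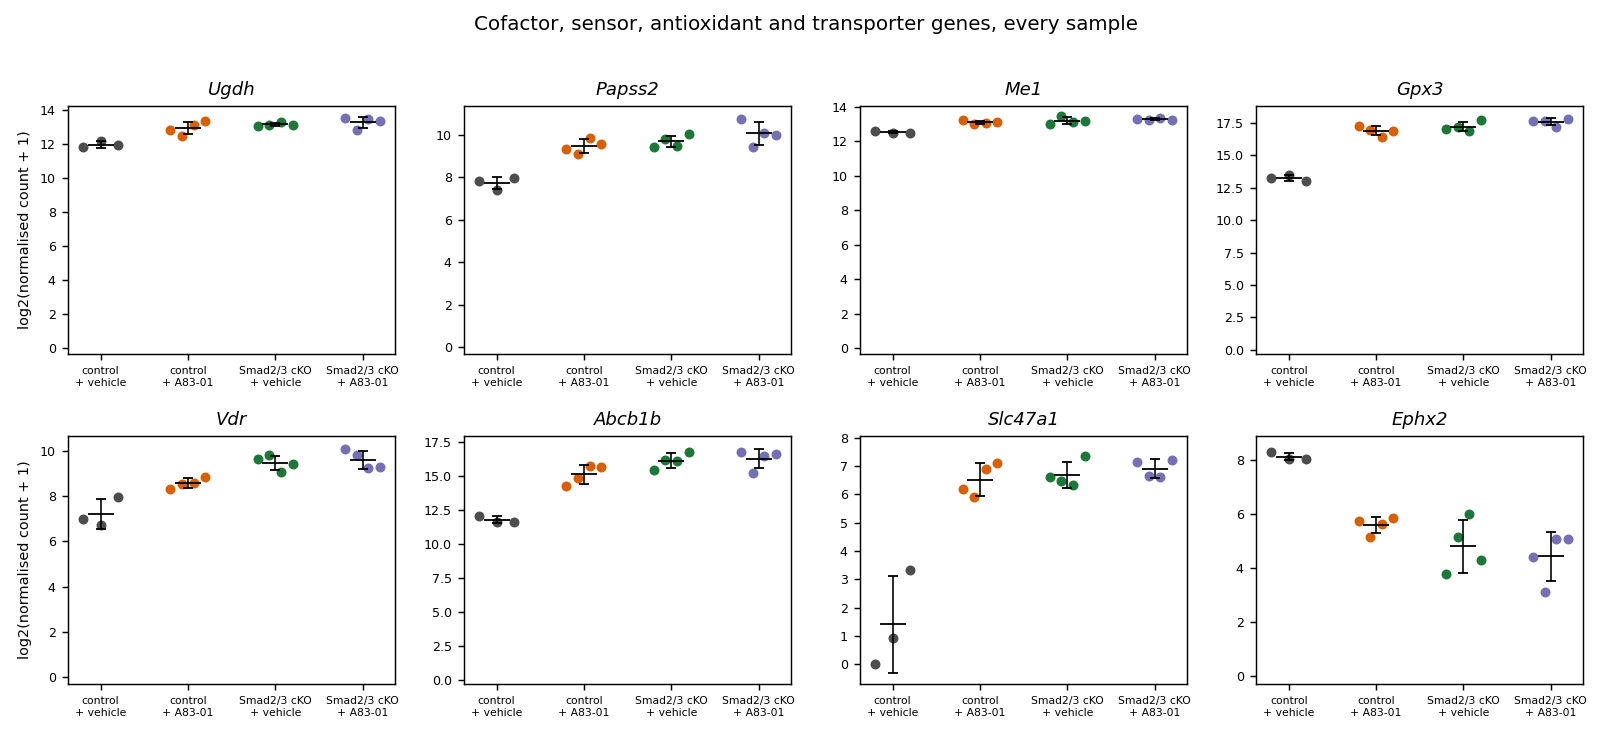
Listed genes of cofactor supply, sensing, antioxidant defence, epoxide hydrolysis and efflux in every sample, as log2 of the normalised count plus 1 (vertical axes) by group (horizontal axes), with the mean and SD as bars. The 3 control + vehicle samples lie below the others for 7 of the genes and above them for *Ephx2*.

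The 28 genes under the minimum had means of 0.555 to 7.62 and no single value above 37.1. In 17 of them at least 8 of the 15 samples were at 0. Just under the minimum were *Cyp2d22*, with 8.08, 0.998 and 1.99 in control + vehicle and 37.1, 12.6, 1.27 and 3.14 in *Smad2/3* cKO, and *Cyp2d34*, with 23.2, 19.1 and 3.77 and 4.29, 16.0, 14.4 and 0. Values of a few counts rest on a few reads, and a fit without the minimum called *Cyp2f2* lower in both comparisons with control + vehicle and *Sult1a1* lower for A83-01.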

How the data were processed

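RNA was sequenced from 15 cultures of endometrial epithelial organoids with the SMART-Seq v4 ultra-low-input kit, which does not keep strand. Per the submitters' processing notes, reads were quantified with Salmon 1.4.0 against GRCm39 and scaled with DESeq2 1.32.0. The deposited values are a signal table of normalised counts per gene made by the authors. Whole reads could not be recovered from them (52.1 to 64.5% of low values lay within 0.1 of whole multiples), so no count model was run. Symbols were matched for 16697 of 16729 genes.

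log2(normalised count + 1) was compared with limma 3.58.1 (R 4.3.3, lmFit and eBayes with trend, two-sided) in 1 fit of all 15 samples over the 13066 genes with a mean of at least 10. P-values were Benjamini-Hochberg adjusted over all of these genes, and fold changes of low genes are understated on this scale. The extraction protocol that GEO gives with the samples names 4 mice for each genotype but does not tie them to samples. The 7 control samples carry 4 distinct label numbers and the 8 *Smad2/3* cKO samples 7, so some samples of different treatment may share a mouse. The members and lists were chosen with earlier results of these data known. Genes named are those called changed, the 3 of highest mean in each family, those next to the minimum of 10 and up to 4 called genes per list. *Cyp1a1*, *Cyp1b1*, *Cyp27b1*, *Cyp46a1*, the *Ugt1*, alpha, pi and theta genes that did not pass, *Ahr*, *Nfe2l2* and *Abcg2* were named after their values were seen. Whether equal label numbers pair samples was checked on the deviations from group means: the 3 pairs of control samples correlated (r = 0.423, 0.409 and 0.354), so the block is reported for them. Control + A83-01 replicate 4 correlated at 0.347 with control + vehicle replicate 3, of another number, and the other unequal control pairs were negative. *Smad2/3* cKO + A83-01 replicate 2 and *Smad2/3* cKO replicate 1, of unequal numbers, correlated at 0.394. Correlation was thus not limited to equal numbers. Words of 31 bases shared between transcripts and promoters came from GRCm38 (Python 3.11.15, Biopython 1.88), whose build differs from the authors'. Alternatives were other pseudocounts and minima, quantile normalisation, own samples only, a replicate block, another threshold and leaving out each sample. The fitting step was tested on simulated data.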

Additional observations from a re-analysis of the deposited data

Results flagged for a closer look

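Of 66 groups of 4 samples tested, 5 held a sample that stood apart by Dixon's criterion at the 95% level, where chance gives about 1 in 20. In *Smad2/3* cKO + A83-01, *Cyp21a1* was at 2.67 in replicate 3 and at 0 in the others, *Gsta1* was lowest in replicate 1 at 76.1, and *Ugt1a6a* was highest in replicate 1 at 1562. In *Smad2/3* cKO, *Cyp27a1* was highest in replicate 2 at 45.7. In control + A83-01, *Gstm1* was highest in replicate 1 at 3886, the sample that stood apart on the second principal component.

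The effect of A83-01 on *Gstm7* differed between genotypes by the interaction test, by 2.47 on the log2 scale (limma adjusted p = 0.00303). The 4 *Smad2/3* cKO + A83-01 samples were above the 4 *Smad2/3* cKO samples, while the 4 control + A83-01 samples were below the 3 control + vehicle samples.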

How the results depend on the processing

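Of 549 values of called results under an alternative, 411 stayed past the thresholds, 138 did not, and 0 changed sign. Of 2286 values of results not called, 33 passed, and 64 changed sign without passing, among them *Sult1c2* for A83-01 in control organoids (0.10 with the replicate block over all samples). The 10 members called for A83-01 in control organoids (642 of all genes) became 3 in a fit of their own samples (257 of all genes). They became 18 at an adjusted p below 0.05 with no fold limit (1517 of all genes). In samples with label numbers below 390 they became 1 (106 of all genes), an alternative chosen after the data were seen and with fewer samples. With the replicate block in the control groups, where 3 pairs share a number and control + A83-01 replicate 4 has no partner, they became 4 (185 of all genes). With the block over all samples they became 8 (530 of all genes). Without 1 sample they ranged from 4 to 14 (14 without control + A83-01 replicate 2), and the calls over all genes from 275 to 717. The 10 called for *Smad2/3* cKO (1207 of all genes) became 21 at the looser threshold (2414 of all genes) and 4 in the lower-numbered samples (508). They ranged from 3 to 12 without 1 sample (630 to 1297 of all genes). In a fit of their own samples 7 passed (958 of all genes), 5 of them among the 10. *Cyp24a1*, *Cyp2c23*, *Gsta2*, *Ugt1a1* and *Ugt2b5* were lost there, and *Gstp1* and *Sult1d1* came in. The 1 interaction became 2 with a pseudocount of 10 (with *Cyp21a1*), 2 with the replicate block (with *Ugt2b34*), 2 at the looser threshold and 0 in the lower-numbered samples, and was 0 to 1 without 1 sample. Over all genes the 72 interactions became 95, 63, 208 and 25 in the same order, and 39 to 77 without 1 sample. The cause was not tested. *Ugt2b34* kept both calls under every alternative run, as *Gstm7* did for *Smad2/3* cKO. Samples of equal replicate number, most of which differ in label number, correlated at r = 0.077, 0.077 and 0.015 for *Smad2/3* cKO against control, at −0.063, −0.166, 0.374 and 0.375 for A83-01 in *Smad2/3* cKO and at −0.171, −0.109, 0.059 and 0.138 between genotypes under A83-01. The *Smad2/3* cKO pair with 1 label number correlated at 0.355. Not every pair passed 0.1, so these comparisons were not treated as paired, and the block gave 11 calls for *Smad2/3* cKO (1030 of all genes). With 3 control + vehicle samples and bases near 0, the folds of *Ugt2b5*, *Cyp2c23* and *Ugt1a1* depend on the pseudocount.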

Other observations

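Without a minimum on the mean, 2 further members of low level were called lower, *Cyp2f2* in both comparisons with control + vehicle and *Sult1a1* for A83-01, both chosen here after their values were seen. *Cyp2f2*, a P450 known from lung epithelium, had 6.67, 14.4 and 5.28 in control + vehicle, 0, 1.10, 0 and 0 in control + A83-01, 1.88, 0, 0 and 0 in *Smad2/3* cKO and 0, 0, 0 and 0 in *Smad2/3* cKO + A83-01. *Sult1a1*, a phenol sulfotransferase, had 8.11, 6.75 and 8.504 in control + vehicle, was at 0 in all 4 control + A83-01 samples, and had 0.809, 0.819, 0 and 0 in *Smad2/3* cKO and 0, 10.6, 2.17 and 0.875 in *Smad2/3* cKO + A83-01, where replicate 2 was above all 3 control + vehicle samples.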
